A study of Mus musculus with 2 samples.

Results

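Atf4, Ddit3, Trib3, Asns, Chac1, Slc38a2, Slc3a2, Ddit4 and Psat1 belong to the program that the transcription factor ATF4 drives when a cell slows protein synthesis under stress. These 9 genes were chosen by symbol from the 32285 genes listed in 2 droplet libraries (single-cell RNA-seq) of mouse limb muscle cells. Aging C57BL/6 mice had received the drug Maraviroc (MVC) by intraperitoneal injection, and control mice the vehicle DMSO. The question behind the treatment was whether MVC lowers senescence and inflammation in muscle. Live cells were sorted with a viability dye after lysis of red blood cells, and 1 library was made from DMSO-treated and 1 from MVC-treated mice. How many mice each library pooled was not given in the sources used here.

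The DMSO library held 5437 cells with a median of 5802 unique molecular identifiers (UMIs, each a counted RNA molecule), and the MVC library held 5454 cells with a median of 5195 UMIs. With 1 library per group there was no replicate check and no test, and every difference below describes these 2 libraries only. Levels are UMIs of a gene summed over the cells of a class, divided by the UMIs of all genes there and scaled to a total of 1e+06 (CPM). Each value carries a 95% interval that covers counting error only, not the spread between mice. Cells fell into 25 clusters, drawn without the 9 genes and named from marker genes, so a class is written "X-like". The classes with at least 100 cells in each library were EC-like (endothelial), FAP-like (fibro-adipogenic progenitor), tenocyte-like, pericyte-like, MuSC-like (muscle stem or satellite cell), macrophage-like and B cell-like cells, and 8 smaller classes are given as values. Only 8 kept barcodes occurred in both libraries.

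In the integrated stress response, kinases that sense unfolded proteins, amino acid shortage, viral RNA or haem shortage phosphorylate the initiation factor eIF2. General translation then slows, while Atf4 mRNA is translated better through upstream reading frames, so that Atf4 mRNA level and ATF4 protein need not move together. ATF4 binds DNA as a dimer, often with a C/EBP protein, and turns on genes for amino acid uptake and synthesis. With longer stress it also turns on Ddit3, which encodes CHOP, and Trib3, which encodes a pseudokinase that holds ATF4 activity back. In muscle, ATF4 has been linked to atrophy with aging and disuse, and eIF2 phosphorylation to the quiescence of satellite cells.

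All 9 genes were protein-coding in the GENCODE annotation of GRCm38. Atf4 lies on chromosome 15 (80255184 to 80257541, plus strand), as does Slc38a2 (96687392 to 96699730, minus strand). Ddit3 (127290774 to 127296288, plus strand) and Ddit4 (59949669 to 59951834, minus strand) lie on chromosome 10. Chac1 (119351229 to 119354381, plus strand) and Trib3 (152337422 to 152344032, minus strand) lie on chromosome 2. Slc3a2 (8706882 to 8723369, minus strand) and Psat1 (15904678 to 15947337, minus strand) lie on chromosome 19, and Asns (7675169 to 7693254, minus strand) lies on chromosome 6. The symbol Ddit3 stood for 2 gene IDs. All its UMIs, 3475 in the DMSO and 2446 in the MVC library, were in ENSMUSG00000025408, and the overlapping ENSMUSG00000116429 was listed at 0 in both.

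The letters that ATF4 and C/EBP dimers are known to bind, TGATGNAA, were searched on both strands of the 250 bases before each RefSeq start (GRCm38.p6). They occurred in 1134 of 32851 promoters (3.45%) and in 2 of the 9 genes, Asns and Chac1. Both stretches are shown 5′ to 3′ on the strand of the gene with the match in capitals, since they are the windows in which these 2 genes carry those letters. The Asns window is chr6:7693214-7693243 on the minus strand, with the match on the strand of the gene and its first base 23 bases before the start. GENCODE starts Asns further upstream, so this stretch lies inside the gene in that annotation. The Chac1 window is chr2:119351019-119351086 on the plus strand, with the match on the opposite strand, 193 bases before the start.
Asns: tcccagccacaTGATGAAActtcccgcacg
Chac1: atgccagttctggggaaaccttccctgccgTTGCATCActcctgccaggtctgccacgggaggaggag
The longer ER stress response element occurred in 37 promoters (0.113%) and in none of the 9. A match is a match of letters, not a bound site, and a window without one says nothing of sites elsewhere in the gene.

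Over all cells of each library, Slc38a2 was the gene that differed past 1.5-fold, from 885 CPM in the DMSO to 525 CPM in the MVC library. Of the other 8 genes, 7 had a lower level in the MVC library within 1.5-fold (for Chac1 also within counting error), and Psat1 had 7.36 vs. 7.32 CPM. Thus 1 of 9 genes was at least 1.5-fold lower and 0 were higher, where 5.56% of the 16805 genes with at least 50 UMIs were lower and 7.63% were higher. The median log2 ratio of the 9 genes was −0.38, against 0.06 for all genes.

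**Figure D1:**
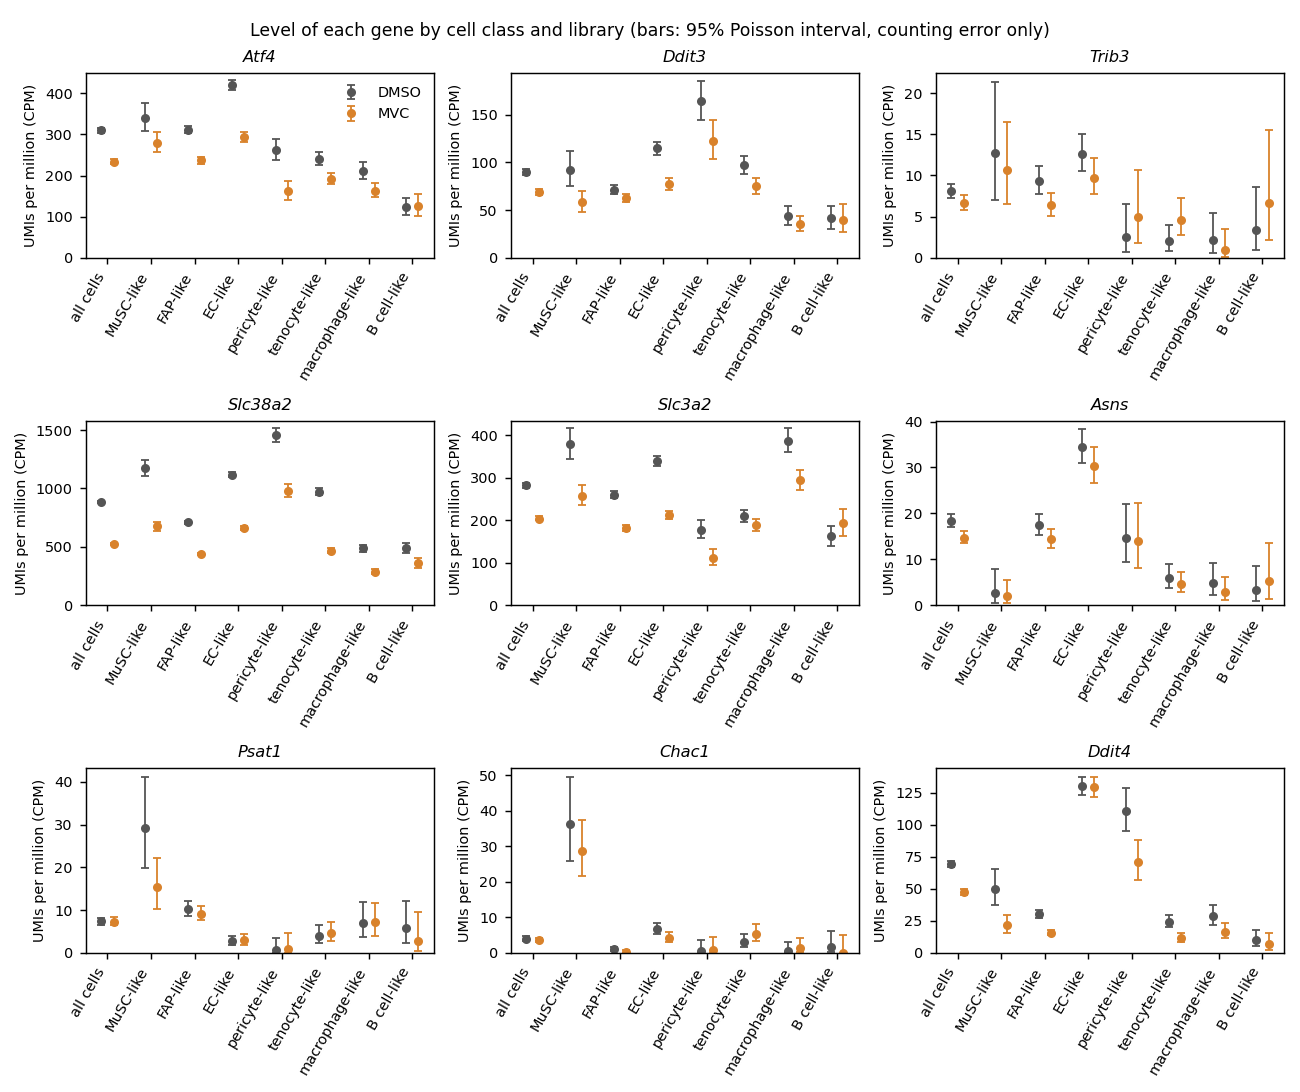
Level of each of the 9 genes in CPM (y axis from 0) over all cells and in the 7 classes with at least 100 cells per library (x axis), with the DMSO library in grey and the MVC library in orange and bars for the 95% Poisson interval. Slc38a2 is lower in the MVC library in all 8 columns, while Ddit4 is level between the libraries in EC-like cells, at 130 vs. 129 CPM.

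Atf4 itself, the transcription factor of the program, was at 310 CPM in the DMSO and 234 CPM in the MVC library over all cells (ratio 0.755, interval 0.734 to 0.777). In EC-like cells it was at 420 vs. 293 CPM (ratio 0.698, 0.663 to 0.734). In FAP-like cells it was at 312 vs. 237 CPM (0.759, 0.725 to 0.795). MuSC-like cells had 341 vs. 280 CPM (0.821, 0.717 to 0.940), so the satellite cell difference was among the smaller ones. Pericyte-like cells had 262 vs. 163 CPM (0.623, 0.523 to 0.740), the one class of the 7 where Atf4 passed 1.5-fold. That count did not hold with doublets removed or with cells classed by their own markers, where the log2 ratio of −0.68 became −0.48 and −0.50, and doublet calls took 10.98% of this cluster. Macrophage-like cells had 211 vs. 164 CPM, and in tenocyte-like cells the values were 241 and 192 CPM. B cell-like cells had 123 vs. 126 CPM, level within counting error (ratio 1.02, 0.783 to 1.34).

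Among the DMSO classes Atf4 was highest in perineurial-like cells (492 CPM, 39 cells) and EC-like cells, and lowest in B cell-like, T/NK-like (113 CPM) and neutrophil-like cells (96.1 CPM). The perineurial-like and EC-like levels did not differ beyond counting error. In the MVC library EC-like cells came first and neutrophil-like cells (65.8 CPM) again last. Between these ends most neighbours in the order did not differ beyond their counting intervals. The perineurial-like level in the MVC library was 231 CPM, the lowest ratio of the 14 classes with at least 50 UMIs (0.469, 0.358 to 0.611). The 3 highest perineurial-like cells held 31.5% of 165 DMSO and 19.3% of 88 MVC UMIs, and 1 DMSO cell held 36. This top level and this ratio thus lean partly on few cells. In all, Atf4 was lower in 12 of those 14 classes, and the interval lay below 1 in 8 of them and above 1 in 0. The remaining classes were B cell-like and T/NK-like cells (138 CPM in the MVC library, ratio 1.22, 0.911 to 1.62).

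Ddit3 encodes CHOP, a C/EBP-family factor made late in the response and tied to cell death. It was at 89.7 vs. 68.9 CPM over all cells (ratio 0.768, 0.729 to 0.809). EC-like cells had 115 vs. 77.3 CPM (0.675, 0.611 to 0.745), just short of the fold. MuSC-like cells had 91.9 vs. 58.1 CPM (0.633, 0.478 to 0.838), past the fold. In the DMSO MuSC-like cells, however, 27.7% of the 101 UMIs came from the 3 highest cells, and without the 3 highest cells of each library the log2 ratio of −0.66 became −0.44. With the mean of each cell's own CPM it became −0.49. FAP-like cells had 71.4 vs. 62.9 CPM (0.880, 0.802 to 0.966), the smallest difference among the large classes with an interval below 1. Pericyte-like cells had 164 vs. 123 CPM, the highest Ddit3 level of the 7 classes in both libraries, and tenocyte-like cells had 96.9 vs. 75.1 CPM. In tenocyte-like cells the UMIs were also uneven, since 1 DMSO cell held 69 of 385 and 1 MVC cell held 33 of 308. Macrophage-like cells had 43.3 vs. 35.2 CPM and B cell-like cells 41.3 vs. 39.8 CPM, both within counting error. Over 14 classes Ddit3 was lower in 13, with the interval below 1 in 7, and neutrophil-like cells were the exception (66.9 vs. 101 CPM from 32 and 23 UMIs, ratio 1.51, 0.844 to 2.66).

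Trib3 was sparse, with 313 UMIs in the DMSO and 237 in the MVC library (8.08 vs. 6.67 CPM, ratio 0.826, 0.695 to 0.981). FAP-like cells had 9.34 vs. 6.39 CPM (0.684, 0.515 to 0.905). EC-like cells had 12.6 vs. 9.75 CPM (0.771, 0.573 to 1.03). These were the only classes with at least 50 UMIs. The level was highest in lymphatic EC-like cells (17.1 vs. 15.4 CPM from 11 and 8 UMIs) and MuSC-like cells (12.7 vs. 10.7 CPM from 14 and 20 UMIs), and neither pair differed beyond counting error.

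Slc38a2 encodes SNAT2, a sodium-coupled transporter of neutral amino acids whose mRNA rises when amino acids run short. Over all cells 34292 DMSO and 18659 MVC UMIs gave 885 vs. 525 CPM (ratio 0.594, 0.583 to 0.604). MuSC-like cells had 1174 vs. 677 CPM (0.576, 0.533 to 0.623). FAP-like cells had 710 vs. 441 CPM (0.621, 0.601 to 0.641). EC-like cells had 1117 vs. 663 CPM (0.594, 0.575 to 0.614), so the ratio was close in these 3 classes. Tenocyte-like cells had 970 vs. 465 CPM (0.479, 0.453 to 0.506), the lowest ratio of the 7 classes. Pericyte-like cells, which had the highest level of the 7 in both libraries, had 1456 vs. 981 CPM (0.674, 0.628 to 0.723), just short of the fold. Macrophage-like cells had 488 vs. 286 CPM (0.587, 0.529 to 0.652). B cell-like cells had 490 vs. 360 CPM (0.734, 0.633 to 0.850), the smallest difference of the 7.

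The lower level of Slc38a2 was found in 14 of 14 classes with at least 50 UMIs, and the interval lay below 1 in 13 of them, all but neutrophil-like cells. The ratios ran from 0.372 in perineurial-like cells (1346 vs. 501 CPM) to 0.841 in lymphatic EC-like cells (1021 vs. 859 CPM). It was also lower in 24 of 24 clusters with at least 50 UMIs, in 13 of them past 1.5-fold. Myonuclear-like cells had too few UMIs for the count, with 4 from 14 DMSO cells and 13 from 24 MVC cells. In the DMSO library the order ran from SMC/pericyte-like (1683 CPM), pericyte-like and perineurial-like cells down to neutrophil-like (282 CPM) and myonuclear-like cells (60.04 CPM). The difference was spread over cells, since the 3 highest cells held 0.548% of the DMSO and 0.847% of the MVC UMIs.

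Within the EC-like class the libraries were not made of the same clusters. A cluster without a subtype name (cluster 1) took in 784 of 2130 DMSO and 456 of 1998 MVC cells, whereas a capillary EC-like cluster (cluster 0) held 383 DMSO and 619 MVC cells. Slc38a2 was at 1521 vs. 970 CPM in the first of these (ratio 0.638, 0.601 to 0.676) and at 923 vs. 504 CPM in the second (0.546, 0.501 to 0.594). In the other 3 EC-like clusters, the ratio was 0.698 (cluster 5), 0.561 (venous EC-like) and 0.706 (arterial EC-like). With the clusters weighted alike in both libraries, the log2 ratio of the EC-like class was −0.65 for Slc38a2 (−0.75 as measured), −0.39 for Atf4 (−0.52) and −0.36 for Ddit3 (−0.57). Atf4 and Ddit3 thus moved further under this weighting than Slc38a2.

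**Figure D2:**
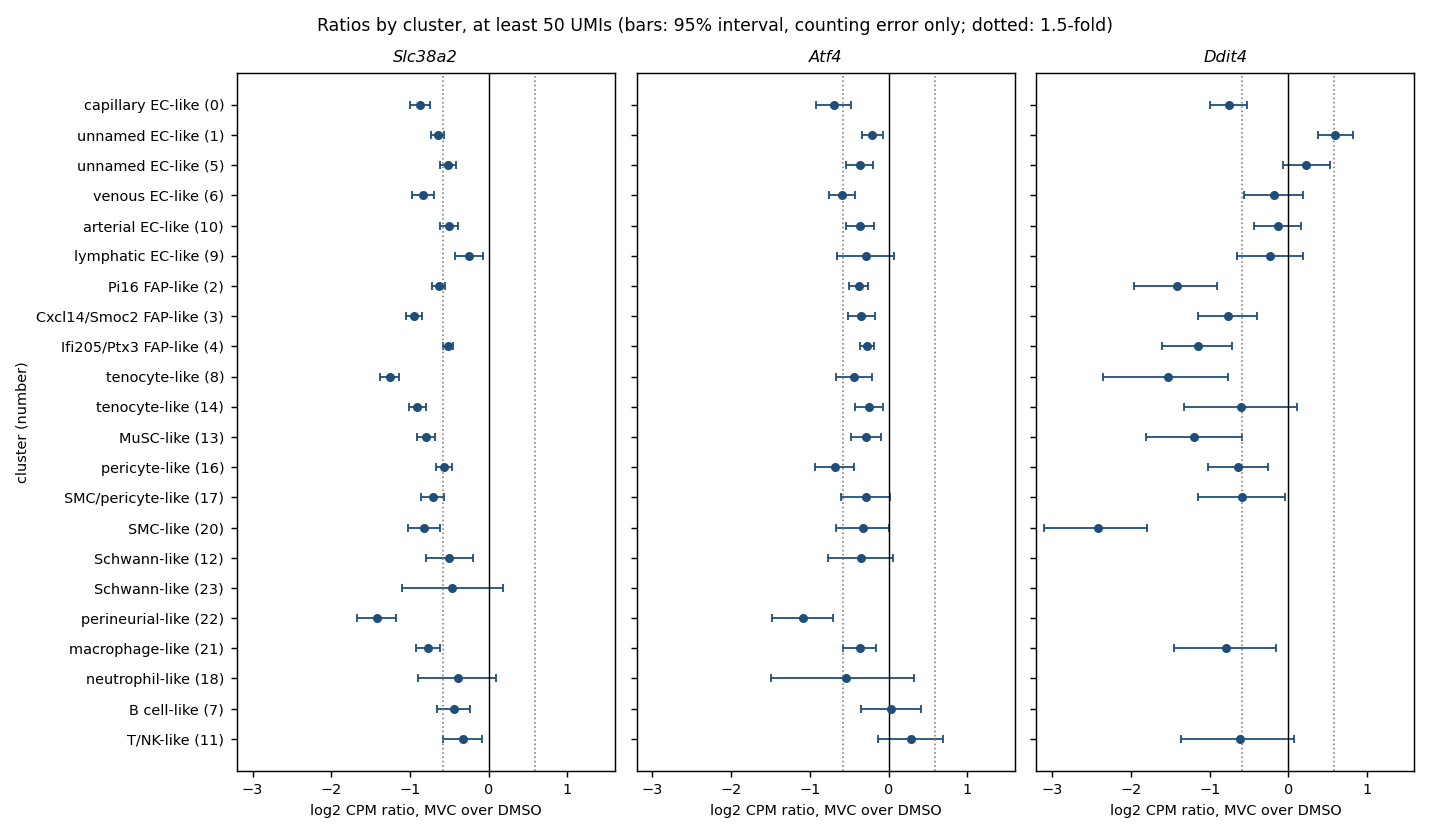
Log2 ratio of CPM, MVC over DMSO (x axis), of Slc38a2, Atf4 and Ddit4 in the named clusters (y axis, cluster number in brackets) with at least 50 UMIs of the gene, with bars for the 95% interval and dotted lines at 1.5-fold. Every Slc38a2 point lies left of 0, while Ddit4 lies right of 0 in EC-like clusters 1 and 5 and furthest left in SMC-like cells, at a ratio of 0.187.

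Slc3a2 encodes the heavy chain 4F2hc, which carries amino acid exchangers such as LAT1 and xCT to the plasma membrane. It was at 282 vs. 204 CPM over all cells (ratio 0.725, 0.703 to 0.746). EC-like cells had 339 vs. 212 CPM (0.626, 0.590 to 0.664), past the fold. FAP-like cells had 260 vs. 181 CPM (0.694, 0.659 to 0.730) and MuSC-like cells 379 vs. 258 CPM (0.679, 0.594 to 0.776), both short of it. Pericyte-like cells had 178 vs. 112 CPM (0.632, 0.511 to 0.778), and there the log2 ratio of −0.66 became −0.38 with doublets removed and −0.51 with cells classed by their own markers. Macrophage-like cells, with the highest DMSO level of all classes, had 387 vs. 294 CPM (0.760, 0.682 to 0.848). Tenocyte-like cells had 210 vs. 188 CPM (0.896, 0.811 to 0.989), a small difference beside the 0.479 of Slc38a2 in the same cells.

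Lymphoid cells did not share the lower Slc3a2. T/NK-like cells had 241 vs. 301 CPM from 186 DMSO and 58 MVC cells (ratio 1.25, 1.03 to 1.52), the one class of 14 with an interval above 1. There the 3 highest cells held 8.82% of 397 DMSO but 21.6% of 148 MVC UMIs, so the higher value leans partly on few cells. B cell-like cells had 162 vs. 192 CPM (1.19, 0.952 to 1.48), with 32.8% of DMSO and 29.0% of MVC UMIs in the 3 highest cells. Perineurial-like cells also had the higher value in the MVC library, 304 vs. 375 CPM (1.23, 0.9497 to 1.61). In these 3 classes Slc38a2 was nonetheless lower, so the pair of transport genes did not move as 1 unit. Within FAP-like cells, Slc3a2 was at 79.7 vs. 84.5 CPM in the Cxcl14/Smoc2 cluster (1.06, 0.896 to 1.26), against ratios of 0.707 in the Pi16 cluster and 0.733 in the Ifi205/Ptx3 cluster. The Cxcl14/Smoc2 cluster, which had the lowest Slc3a2 and Atf4 of the 3, took in 326 of 1231 DMSO and 519 of 1466 MVC cells, and the class ratio of 0.694 lay below all 3 cluster ratios. The same held for Atf4, at 0.759 in the class and 0.768, 0.786 and 0.826 in the clusters. With these clusters weighted alike in both libraries, the log2 ratio of the FAP-like class was −0.41 for Slc3a2 (−0.53 as measured), −0.32 for Atf4 (−0.40) and −0.64 for Slc38a2 (−0.69).

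Asns, asparagine synthetase, was at 18.5 vs. 14.8 CPM over all cells (ratio 0.7995, 0.713 to 0.896). Its highest levels were in EC-like and SMC/pericyte-like cells, while lymphatic EC-like cells had only 3 and 1 UMIs. EC-like cells had 34.5 vs. 30.4 CPM (0.881, 0.744 to 1.04), and within them the venous EC-like cluster had 61.2 vs. 55.5 CPM. SMC/pericyte-like cells had 39.1 vs. 21.7 CPM from 34 and 11 UMIs (0.555, 0.254 to 1.12). FAP-like cells had 17.5 vs. 14.5 CPM (0.829, 0.683 to 1.01). MuSC-like cells were near the bottom of the order, with 3 UMIs in 145 DMSO cells and 4 in 260 MVC cells. No class had an interval that excluded 1, so the lower total was not seen beyond counting error in any class. Among the FAP-like clusters the ratio was 0.763 (0.587 to 0.989) in Ifi205/Ptx3, 0.730 (0.410 to 1.30) in Cxcl14/Smoc2 and 1.27 (0.895 to 1.82) in Pi16.

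Psat1, phosphoserine aminotransferase of the serine synthesis pathway, was level between the libraries over all cells (7.36 vs. 7.32 CPM, ratio 0.995, 0.838 to 1.18). MuSC-like cells had 29.1 vs. 15.5 CPM (0.531, 0.310 to 0.907), past the fold. Those levels rest on 32 and 29 UMIs in 15 and 20 cells, and the 3 highest cells held 40.6% and 34.5% of them. FAP-like cells had 10.2 vs. 9.11 CPM (0.896, 0.698 to 1.15). Schwann-like cells had 15.3 vs. 39.5 CPM (2.57, 1.18 to 6.22), the opposite direction to MuSC-like cells. That ratio rests on 9 UMIs among 99 DMSO cells and 27 among 127 MVC cells, too few for a count as higher. The 9 DMSO UMIs lay in 5 cells, and the 3 highest cells held 77.8% of them. The Schwann-like clusters also differed, at 4.38 in cluster 12 (5 and 24 UMIs, 1.64 to 14.7) and 0.475 in cluster 23 (4 and 3 UMIs, 0.0696 to 2.81). T/NK-like cells had 21.8 vs. 10.2 CPM from 36 and 5 UMIs (0.466, 0.143 to 1.19). Psat1 was listed at 0 in both libraries in SMC-like, neutrophil-like and myonuclear-like cells.

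Chac1 encodes an enzyme that breaks down glutathione and is a target of ATF4 and CHOP. Its highest levels were in the myogenic classes, with 36.4 vs. 28.8 CPM in MuSC-like cells (40 and 54 UMIs, ratio 0.791, 0.516 to 1.22). Myonuclear-like cells had 105 CPM from 7 UMIs in 14 DMSO cells and 44.4 CPM from 4 UMIs in 24 MVC cells. EC-like cells had 6.72 vs. 4.30 CPM (68 and 34 UMIs, 0.641, 0.411 to 0.981). That value was past the fold as measured and not with EC-like clusters weighted alike, where the log2 ratio of −0.64 became −0.58, or with the mean of each cell's own CPM, where it became −0.53. FAP-like cells had 13 and 4 UMIs, at 0.980 vs. 0.287 CPM. In MuSC-like cells the 3 highest cells held 32.5% and 35.2% of the Chac1 UMIs.

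Ddit4 encodes REDD1, an inhibitor of mTORC1 that is induced by ATF4 and also by hypoxia and glucocorticoids. It was at 69.3 vs. 47.7 CPM over all cells (ratio 0.688, 0.647 to 0.732). MuSC-like cells had 50.02 vs. 21.9 CPM (0.437, 0.284 to 0.667), the lowest ratio among values with at least 50 UMIs in the 7 classes. FAP-like cells had 30.4 vs. 15.8 CPM (0.520, 0.439 to 0.614), and the ratio was below the fold in each of their 3 clusters (0.374, 0.586 and 0.450). Tenocyte-like cells had 24.4 vs. 11.95 CPM (0.490, 0.340 to 0.697), and macrophage-like cells 28.8 vs. 16.6 CPM (0.577, 0.366 to 0.899). Pericyte-like cells had 111 vs. 71.2 CPM (0.642, 0.491 to 0.836), which the stricter cell filter moved to a log2 ratio of −0.55 from −0.64, and classing by own markers to −0.48. In the macrophage-like cells 44.4% of 54 DMSO and 60% of 35 MVC UMIs came from the 3 highest cells.

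In endothelial cells Ddit4 was level as a class and not within it. EC-like cells had 130 vs. 129 CPM (ratio 0.994, 0.915 to 1.08), and the clusters inside the class went in opposite directions. In the capillary EC-like cluster it was at 246 vs. 145 CPM (0.590, 0.501 to 0.694), and in cluster 1 at 129 vs. 195 CPM (1.51, 1.30 to 1.76). The venous, arterial and remaining EC-like clusters had ratios of 0.879, 0.909 and 1.17 with intervals that included 1. SMC-like cells, the class with the highest DMSO level, had 258 vs. 48.2 CPM (0.187, 0.116 to 0.288) from 163 UMIs in 65 cells and 24 UMIs in 47 cells. Of those 163 UMIs, 33.7% were in 3 cells. Of 10 classes with at least 50 UMIs, the Ddit4 interval lay below 1 in 7 and above 1 in 0, and the ratios ran from 0.187 to the 0.994 of EC-like cells.

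Counted by class, members past 1.5-fold lower in the MVC library were more frequent than among all genes in 6 of the 7 classes, and 0 members were higher in any of them. In MuSC-like cells it was 4 of the 7 genes with at least 50 UMIs (Ddit3, Slc38a2, Ddit4 and Psat1), where 9.25% of 6421 genes were lower and 10.1% were higher. In that class Ddit3 fell short of the fold without the 3 highest cells of each library, and Psat1 rested on 32 and 29 UMIs. In FAP-like cells it was 2 of 8 (Slc38a2 and Ddit4), where 3.18% of 12826 genes were lower and 11.5% higher. In EC-like cells it was 3 of 9 (Chac1, Slc38a2 and Slc3a2), where 3.97% of 11523 genes were lower and 9.89% higher. Chac1 fell short there with the EC-like clusters weighted alike. These members share their cells and their libraries, so a count is a description of the 9 genes and not of independent events. They were also chosen with earlier results of these data known. The share over all genes is thus a background and not an independent check.

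In pericyte-like cells the count was 3 of 5 (Atf4, Slc3a2 and Ddit4), where 5.83% of 7011 genes were lower and 9.97% higher. With cells classed by their own markers these 3 genes fell short of the fold, and Slc38a2 passed it (log2 −0.67). Tenocyte-like cells had 2 of 5 (Slc38a2 and Ddit4), where 5.37% of 9483 genes were lower and 9.13% higher, and macrophage-like cells had the same pair, also 2 of 5, where 6.34% of 7448 genes were lower and 10.0% higher. B cell-like cells had 0 of 4, where 10.0% of 5615 genes were lower and 12.5% higher. The members' median log2 ratio was −0.66 in MuSC-like, −0.46 in FAP-like, −0.52 in EC-like, −0.64 in pericyte-like, −0.37 in tenocyte-like, −0.40 in macrophage-like and −0.01 in B cell-like cells. The median of all genes lay between −0.04 and 0.13 in these classes. In FAP-like cells, where it was 0.13, members scaled to that median also passed the fold for Trib3 (log2 −0.68) and Slc3a2 (log2 −0.66). For Slc3a2 that value is on the class as measured, which was at log2 −0.53 before this scaling and at −0.41 with its clusters weighted alike.

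**Figure D3:**
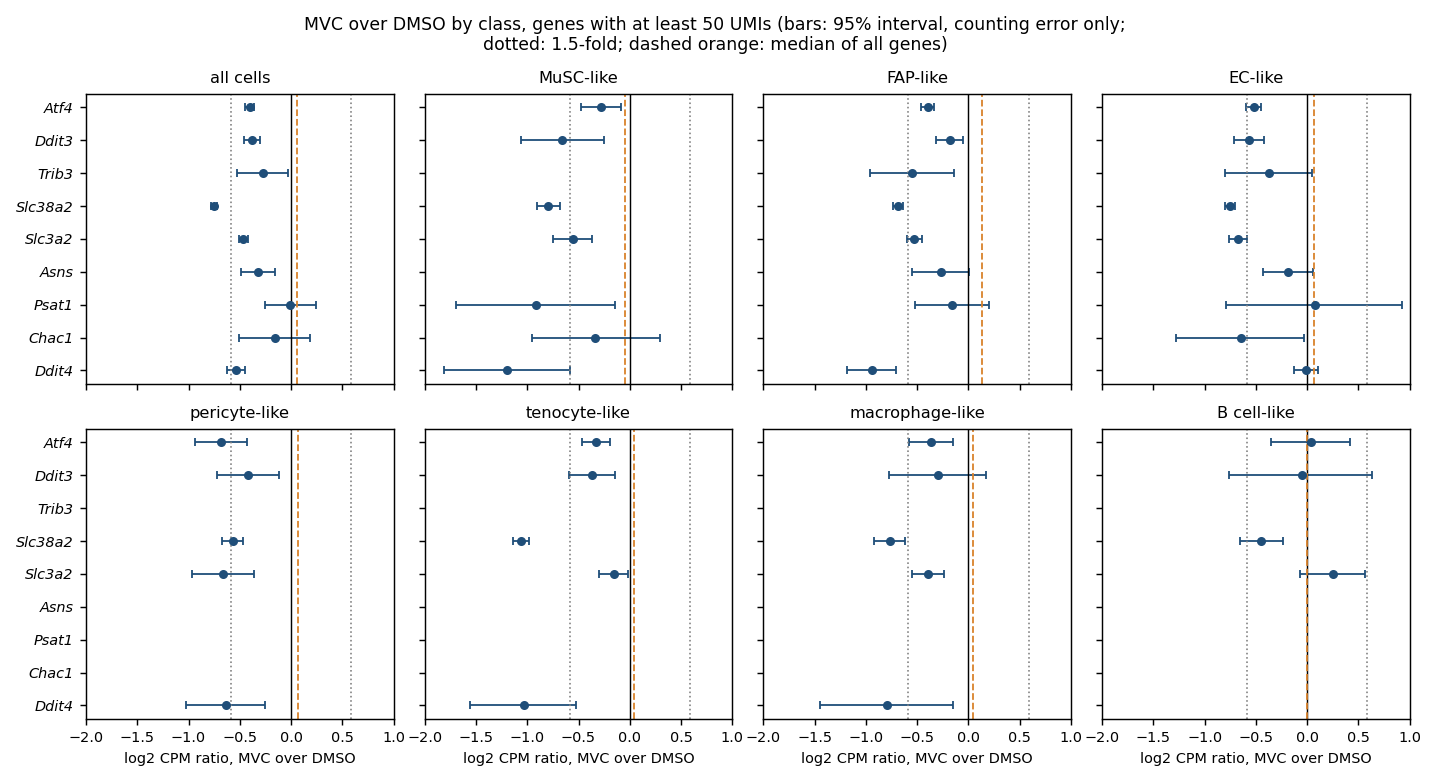
Log2 ratio of CPM, MVC over DMSO (x axis), of each gene with at least 50 UMIs (y axis) over all cells and in each of 7 classes, with bars for the 95% interval, dotted lines at 1.5-fold and a dashed line at the median of all genes in the class. Points lie left of the dashed line for 7 of 7 measured genes in MuSC-like cells, and Slc38a2 lies left of it in every panel.

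To compare cells at equal depth, each cell was thinned to 2000 UMIs, which left out 447 DMSO and 981 MVC cells. An Slc38a2 UMI was then found in 71.5% of DMSO and 54.9% of MVC cells (unthinned 87.8% and 75.4%). An Atf4 UMI was found in 42.6% and 34.2% (unthinned 68.4% and 57.1%). For Slc38a2 the thinned shares were 85% vs. 68% in MuSC-like cells, 79.0% vs. 61.2% in EC-like cells and 64.2% vs. 48.9% in FAP-like cells. Asns was found in 5.91% vs. 4.69% of EC-like cells and in 0 of 140 and 0 of 250 MuSC-like cells. Chac1 was found in 5.71% vs. 6% of MuSC-like cells in 1 of 1187 and 0 of 1346 FAP-like cells, and in 0 of 144 and 0 of 198 macrophage-like cells, which allows shares of up to 2.53% and 1.85% (Clopper-Pearson).

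Of the 8 genes other than Atf4, at least 3 were found in 12.3% of thinned DMSO cells (11.4% to 13.3%) and 6.35% of MVC cells (5.65% to 7.10%). In EC-like cells the share was 18.4% vs. 10.1%, the highest of the 7 classes in both libraries. In FAP-like cells it was 6.91% vs. 2.90%, and in pericyte-like cells 14.6% vs. 7.94%. In MuSC-like cells it was 12.9% (7.80% to 19.6%) vs. 9.60% (6.25% to 13.9%), intervals that overlap. Cells with none of the 8 made up 5% vs. 22% of MuSC-like and 13.9% vs. 31.0% of tenocyte-like cells. Slc38a2, found in more cells than any other of the 8, weighs most in this count.

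**Figure D4:**
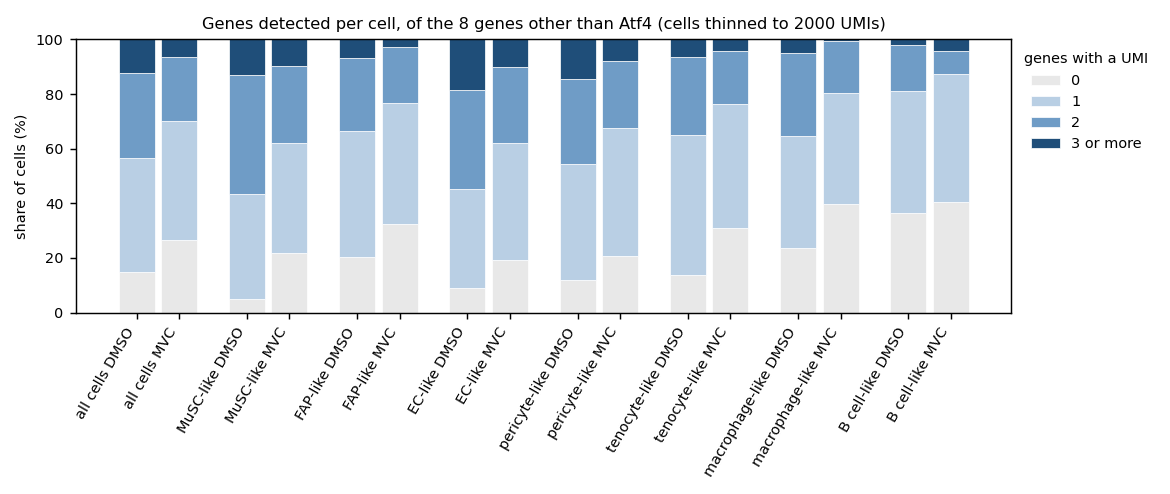
Share of cells (y axis, %) with a UMI of 0, 1, 2 or at least 3 of the 8 genes other than Atf4, for each class and library (x axis), after thinning each cell to 2000 UMIs. The darkest segment, at least 3 genes, is 18.4% of DMSO and 10.1% of MVC EC-like cells.

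Other genes of the pathway were counted in the same way, against the shares of all genes given above. Of 12 genes for the stress-sensing kinases, eIF2, its exchange factor and its phosphatases, 0 were lower past 1.5-fold over all cells and 1 was higher, where 7.63% of all genes were higher. That gene group had a median log2 ratio of 0.06 in FAP-like, −0.09 in EC-like, 0.30 in tenocyte-like and 0.29 in macrophage-like cells. The median was −0.27 in pericyte-like, −0.17 in MuSC-like and −0.09 in B cell-like cells. In pericyte-like cells 2 of 7 measured were lower, and in tenocyte-like cells 4 of 11 were higher. Eif2ak2, which encodes the double-stranded RNA sensor PKR, was higher in FAP-like cells (10.3 vs. 20.5 CPM), EC-like cells (41.0 vs. 71.6 CPM), macrophage-like cells (16.02 vs. 35.2 CPM) and tenocyte-like cells (13.3 vs. 23.9 CPM). Ppp1r15a, which encodes GADD34, the phosphatase subunit that ends the response, was lower in pericyte-like (604 vs. 368 CPM) and macrophage-like cells (426 vs. 282 CPM). Among 7 partner and related factors, Atf3 was higher in MuSC-like (418 vs. 701 CPM) and B cell-like cells (59.0 vs. 169 CPM), and Cebpb was lower in pericyte-like cells (741 vs. 475 CPM).

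Of 11 target genes for amino acid and one-carbon synthesis, 2 were higher and 0 lower over all cells (median log2 ratio −0.13). There 7.63% of all genes were higher. In EC-like cells 3 of 5 measured were lower, with a median of −0.76. The lowest were Shmt2, mitochondrial serine hydroxymethyltransferase (3.75 vs. 1.90 CPM), and Mthfd2, a mitochondrial folate enzyme (27.2 vs. 14.05 CPM). In FAP-like cells 2 of 10 were lower, with Mthfd2 at 35.6 vs. 23.5 CPM, and 2 were higher, with Pycr1, a proline synthesis enzyme, at 1.21 vs. 3.09 CPM. Aldh18a1, another proline synthesis enzyme, was lower in MuSC-like cells (42.7 vs. 25.1 CPM) and tenocyte-like cells (34.7 vs. 21.5 CPM). The median of this synthesis list was 0.04 in tenocyte-like cells. In pericyte-like cells 1 of 2 measured was lower, while 0 of 3 in macrophage-like and 0 of 2 in B cell-like cells passed the fold. Of the other amino acid transporter targets, 0 of 7 passed the fold over all cells. Slc7a11, which encodes xCT, was lower in tenocyte-like cells (73.7 vs. 30.001 CPM), and Slc7a5, which encodes LAT1, in pericyte-like cells (35.9 vs. 22.1 CPM). Slc1a4, a neutral amino acid transporter, was higher in MuSC-like (11.8 vs. 21.3 CPM) and FAP-like cells (4.82 vs. 7.39 CPM), and in B cell-like cells Slc1a5 was higher (59.0 vs. 102 CPM) and Slc38a1 lower (321 vs. 189.8 CPM). The 12 aminoacyl-tRNA synthetases had 0 past the fold over all cells and a median of 0.01. By class 1 was lower in each of MuSC-like, EC-like and pericyte-like cells (medians −0.20, −0.16 and −0.15), 1 was higher in each of FAP-like and tenocyte-like cells, and 2 were higher in macrophage-like cells.

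Among the other ATF4 targets, 2 of 7 were lower over all cells, with a median log2 ratio of −0.45. In MuSC-like cells 1 of 5 measured was higher and 1 was lower, and in B cell-like cells 0 of 1 passed the fold. Gdf15, a stress hormone of the TGF-β family, was lower in FAP-like cells (22.4 vs. 8.25 CPM, ratio 0.369, 0.295 to 0.459), EC-like cells (ratio 0.263, 0.233 to 0.297) and tenocyte-like cells (13.6 vs. 1.95 CPM, 54 and 8 UMIs). Vegfa, the vascular growth factor, was lower in MuSC-like cells (185 vs. 82.1 CPM), FAP-like cells (147 vs. 91.1 CPM), pericyte-like cells (42.9 vs. 15.6 CPM) and macrophage-like cells (32.0 vs. 9.04 CPM). Sesn2, a stress-induced inhibitor of mTORC1, was lower in pericyte-like (27.6 vs. 13.9 CPM) and macrophage-like cells (25.1 vs. 15.2 CPM).

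The ER chaperones of the ATF6 and XBP1 arms, which answer unfolded proteins beside the ATF4 arm, divided by class. Of 16 measured in MuSC-like cells 4 were lower and 0 higher, where 9.25% of all genes were lower, with a median log2 ratio of −0.40. There the lowest were Edem1, which sorts misfolded proteins for degradation (101 vs. 51.7 CPM), and Pdia4, a disulfide isomerase (50.02 vs. 28.3 CPM). In EC-like cells 3 of 18 were lower and 0 higher, where 3.97% of all genes were lower, with Manf at 212 vs. 129 CPM. In tenocyte-like cells the direction was opposite, with 4 of 18 higher and 0 lower where 9.13% of all genes were higher, a median of 0.30, and Creld2 at 12.3 vs. 23.7 CPM. The other 14 chaperones of the list were within the fold in tenocyte-like cells. The difference between classes was not tested.

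**Figure D5:**
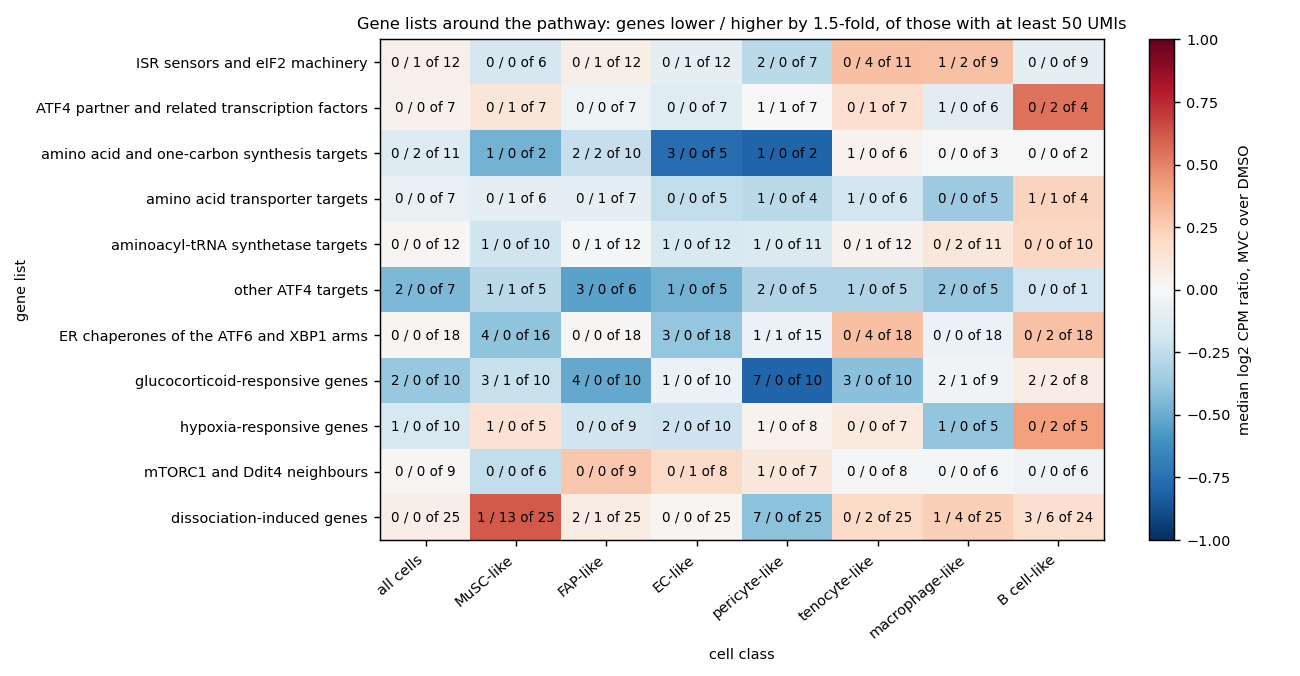
Colour gives the median log2 CPM ratio (MVC over DMSO) of 11 gene lists (y axis) over all cells and in 7 classes (x axis), with the number of genes lower and higher by 1.5-fold out of those with at least 50 UMIs printed in each cell. The lists of other ATF4 targets and of glucocorticoid-responsive genes are blue over all cells (medians −0.45 and −0.38), and the aminoacyl-tRNA synthetases are near white (0.01).

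Ddit4 is also a target of glucocorticoid and hypoxia signalling, and lists for both were read beside it. Of 10 glucocorticoid-responsive genes, 7 were lower in pericyte-like cells, 4 in FAP-like, 3 in MuSC-like and 3 in tenocyte-like cells, 2 of 9 measured in macrophage-like and 2 of 8 in B cell-like cells, and 1 in EC-like cells, where Ddit4 was level. In addition 1 was higher in MuSC-like, 1 in macrophage-like and 2 in B cell-like cells, and the list's median was −0.04 in macrophage-like cells, where the Ddit4 ratio was 0.577. Pdk4 was the lowest in several, at 22.4 vs. 8.83 CPM in FAP-like and 14.1 vs. 1.71 CPM in tenocyte-like cells. Summed over the list, the level was 2041 vs. 1857 CPM in EC-like cells, 13874 vs. 9265 CPM in MuSC-like cells and 13733 vs. 9422 CPM in FAP-like cells, the last pair mostly from the metallothioneins Mt1 and Mt2. Of 10 hypoxia-responsive genes, 1 was lower over all cells and 0 higher, and the list had medians of −0.20 in FAP-like, −0.21 in EC-like and −0.40 in macrophage-like cells. The medians were 0.15 in MuSC-like, 0.09 in tenocyte-like, 0.03 in pericyte-like and 0.41 in B cell-like cells, where 2 of 5 measured were higher. The part of either signal in the Ddit4 values was not tested.

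Of 25 genes induced by tissue dissociation, 0 passed the fold over all cells (median log2 ratio 0.07), and the counts differed by class. In MuSC-like cells 13 of 25 were higher and 1 was lower in the MVC library, and their sum was 27076.5 vs. 42230 CPM. There 4 of 7 measured members of the ATF4 group were lower, with the limits for Ddit3 and Psat1 given above. In pericyte-like cells 7 of 25 were lower and 0 higher (46040 vs. 35091 CPM), in the direction of the members. In EC-like cells 0 of 25 passed the fold (41269 vs. 42235 CPM), where Slc38a2 was at a ratio of 0.594, and in FAP-like cells 1 was higher and 2 were lower. The median mitochondrial share was 1.62% vs. 1.81% over all cells and 1.81% vs. 2.57% in pericyte-like cells, and Malat1, an abundant nuclear RNA, was at 28092 vs. 27959 CPM. The part of dissociation or RNA quality in the members' values was not tested.

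The 9 genes did not all follow the same profile over the classes. Over 30 profiles, 15 classes in each of 2 libraries, the correlation of log2(CPM + 10) was highest for Slc38a2 with Ddit4 (Pearson r = 0.73), followed by Atf4 with Ddit4 (0.61) and Slc38a2 with Asns (0.60). It was lowest for Chac1 with Slc3a2 (−0.61) and with Asns (−0.41). Psat1 and Slc38a2 had r = 0.04. The profiles share libraries, and small classes have few UMIs, so these values are descriptions without a test.

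Among 10382 genes with at least 500 UMIs, those with the profile most like each gene were found by the same measure. For Atf4 they were Cltb (r = 0.85), Trip10 (0.84) and the glucocorticoid-responsive Klf9 (0.83). For Slc38a2 they were Fosb, an immediate early gene (0.88), Gpkow (0.88) and Brwd1 (0.87). For Chac1 they were Ankrd1 (0.88), the skeletal actin gene Acta1 (0.88) and Eif4ebp1, which encodes the translation inhibitor 4E-BP1 (0.88). For Asns they were Hotairm1 (0.84), Cxcl12 (0.81) and Iigp1 (0.80), and for Ddit4 they were Adamts9 (0.83), Tanc1 (0.82) and Lrrc32 (0.82). For Slc3a2 they were Med13l, Sec24b and Ascc3 (0.87, 0.87 and 0.86), for Psat1 Disp1, Fasn and Zkscan1 (0.86, 0.83 and 0.75), for Ddit3 Bace1, Ttc21a and Csnk1e (0.79, 0.72 and 0.70), and for Trib3 Slco2a1, Eda2r and Hmcn1 (0.81, 0.81 and 0.79).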

How the data were processed

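Raw UMI counts per gene and cell barcode were deposited by the authors as 1 matrix per library, limited to the barcodes called as cells. Per the file headers and the submitters' processing notes they were written with Cell Ranger 7.0.0, and the notes also name Seurat 5.0.1 and the build mm10. No normalisation had been applied. Groups were taken from the treatment in the labels.

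Barcodes with fewer than 500 genes or over 10% mitochondrial UMIs were dropped, the cut-offs of the study's methods. This removed 6.45% of 5812 DMSO and 9.81% of 6047 MVC barcodes and left 38748234 and 35518029 UMIs. Cells were clustered with scanpy 1.11.5 on 1996 variable genes (30 principal components, 20 neighbours, Leiden resolution 1, no integration), leaving out the 9 genes and the pathway lists. A cluster was named when at least 3 markers were raised by a log2 fold of 1 and found in 20% of its cells, with a margin of 0.5 over the next class. Below that margin it took both names, as in SMC/pericyte-like cells. A cluster with few UMIs per cell and no marker of its class among its top genes stayed unnamed, even with enough raised markers. Class names were rebuilt here and can differ from the study's for that reason. Doublets were called at 0.8% per 1000 cells (236 DMSO and 238 MVC cells) and kept. No free RNA was subtracted.

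Levels carried exact Poisson, shares exact Clopper-Pearson and ratios exact conditional 95% intervals (scipy 1.17.1). A gene was counted as higher or lower at a CPM ratio of at least 1.5 or its inverse with at least 50 UMIs in the class over both libraries. From each list, the genes furthest in each direction past the fold could be named. The members and lists were chosen with earlier results of these data known. The scripts were tested on simulated data. Alternatives covered scaling, doublets, the cell filter, cluster and class definitions, single high cells, thinning, and the fold and UMI minimum.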

Additional observations from a re-analysis of the deposited data

Results flagged for a closer look

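Psat1 was flagged because its ratio of MVC over DMSO was 2.57 in Schwann-like cells (9 and 27 UMIs) and 0.531 in MuSC-like cells (32 and 29 UMIs), past 1.5-fold in opposite directions. Ddit4 was flagged for the same pattern between EC-like clusters, with a ratio of 1.51 in cluster 1 (399 and 294 UMIs) and 0.590 in the capillary EC-like cluster (348 and 267 UMIs). Both rest on 1 library per group, and neither difference was tested. The Schwann-like Psat1 value had too few UMIs for a count as higher, and 77.8% of its DMSO UMIs were in 3 cells. It was not shared by the Schwann-like clusters, with a ratio of 4.38 in cluster 12 and 0.475 in cluster 23.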

How the results depend on the processing

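Of 498 log2 ratios under alternatives, 483 kept the direction of the value as reported, including 67 of 67 for Slc38a2 and for Slc3a2 and 41 of 51 for Psat1. With a fold of 2, the members lower were 0 over all cells, 1 in MuSC-like, and 0 in each of FAP-like, EC-like, pericyte-like and macrophage-like cells, and both tenocyte-like genes stayed past it. Scaled by the median ratio, they were 2 over all cells and 4 in FAP-like cells. With at least 20 UMIs, 2 members were higher in tenocyte-like cells, and with doublets removed 1 was lower in B cell-like cells. The share of all genes past the fold was not computed under these alternatives. These counts therefore show only how the calls shift and cannot be set against a background. The difference in the share of macrophage-like cells with an Atf4 UMI turned to 0.378 percentage points with cells thinned to 1000 UMIs. The clusters weighted alike were chosen after seeing the data and kept the direction in 26 of 26 ratios. The cause of these shifts was not tested. No paired analysis was possible because each group held 1 library, and no library could be left out. Depth limits Trib3, Chac1, Psat1 and Asns to a few classes.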

Other observations

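Barcodes removed by the cell filter, 375 in the DMSO and 593 in the MVC library, were read apart. In them Slc38a2 was at 433 CPM (174 UMIs, 371 to 502) in the DMSO and 480 CPM (262 UMIs, 424 to 542) in the MVC library, and Atf4 was at 174 CPM (136 to 220) and 119 CPM (92.0 to 152). A low-UMI cluster stayed unnamed although 6 endothelial markers were raised in it, with Gpihbp1 and Timp4 among its top genes. It had Ddit3 at 109 vs. 197 CPM (34 and 41 UMIs, ratio 1.82, 1.12 to 2.95). That direction was opposite to most classes, EC-like cells among them. A group of 10 DMSO and 5 MVC cells led by mast cell protease genes had Slc3a2 at 706 vs. 1209 CPM (61 and 29 UMIs, ratio 1.71, 1.06 to 2.71).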
